A study of Homo sapiens with 12 samples.

Results

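The genes described are 10 listed regulators of mTOR complex 1 (mTORC1), the growth kinase that couples protein synthesis to the supply of nutrients. They are DDIT4, SESN2, DEPTOR, TSC1, TSC2, RRAGC, RRAGD, FLCN, FNIP1 and FNIP2, listed by name out of 43481 genes with a transcript in the tables. No measured value entered the rule, but earlier results of these data were known when the genes were chosen. Each gene's value is the sum of its transcripts' expected counts, which are estimated read numbers that need not be whole. Poly-A RNA was sequenced from RPE-1, a retinal pigment epithelium line immortalised with telomerase, in 12 libraries, 3 per group. The starved cells were held for 24 h with neither FCS (fetal calf serum) nor glucose. After the same 24 h the other 3 groups were refed for 4 h (10% FCS, glucose at 5 g/l), together with DMSO alone (solvent), with 100 µM DMA in DMSO, or with 10 µM C646 in DMSO. DMA (dimethyl amiloride) blocks the Na+/H+ exchangers that export acid from cells, and C646 inhibits the acetyltransferases p300 and CBP. All groups are the same cell line. The starved cells were taken at the end of the 24 h and the other groups 4 h later, so these differ in time as well as in serum and glucose. DMSO is named above for the refed groups only, and its part in the comparisons with starved cells was not tested. The labels number the libraries of a group 1 to 3 without naming separate cultures, so that p-values measure the spread between these libraries, which may be technical.

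As background, mTORC1 is switched on at the surface of the lysosome. Amino acids bring it there through Rag GTPases, pairs of RagA or RagB with RagC or RagD, and growth factors then activate it there through the small GTPase RHEB. TSC1 and TSC2 form the complex that keeps RHEB off, DDIT4 (REDD1) is a stress-induced protein that acts through TSC2, SESN2 (sestrin 2) is a leucine sensor that restrains the Rag pathway when leucine is low, and DEPTOR binds mTOR and inhibits it. These 5 genes are inhibitors. RRAGC and RRAGD encode RagC and RagD, and FLCN (folliculin) with FNIP1 or FNIP2 forms the complex that acts on them. These 5 genes carry the amino acid signal towards mTORC1 and towards its substrates TFEB and TFE3, and the name "brakes" therefore fits the first 5 only. Several of the 10 are known targets of transcription factors that respond to starvation: ATF4 for DDIT4 and SESN2, and TFEB and its relatives for RRAGC, RRAGD, FLCN and FNIP genes.

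RefSeq promoter windows (GRCh38.p14, 250 bases before to 50 after each gene's start) were found for 8 of the 10 genes, and the 250 bases before the start are shown 5′ to 3′ on the gene's strand for 5 of them. Capitals mark every match, on either strand, to TGATGNAA (the core of the amino acid response element bound by ATF4), TCACGTG (the core of the element bound by TFEB), CACGTG (the E-box, contained in the longer match) and GTAAACA (the FOXO site). FNIP1, RRAGC and TSC2 are shown because their windows hold matches, and DDIT4 and SESN2 because they had the largest changes and their windows hold none.
FNIP1, chr5:131797018-131797267, minus strand: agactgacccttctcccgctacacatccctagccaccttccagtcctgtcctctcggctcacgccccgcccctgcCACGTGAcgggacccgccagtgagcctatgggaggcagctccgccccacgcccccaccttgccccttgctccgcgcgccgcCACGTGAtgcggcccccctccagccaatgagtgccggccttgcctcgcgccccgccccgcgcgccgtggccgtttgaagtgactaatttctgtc
RRAGC, chr1:38859773-38860022, minus strand: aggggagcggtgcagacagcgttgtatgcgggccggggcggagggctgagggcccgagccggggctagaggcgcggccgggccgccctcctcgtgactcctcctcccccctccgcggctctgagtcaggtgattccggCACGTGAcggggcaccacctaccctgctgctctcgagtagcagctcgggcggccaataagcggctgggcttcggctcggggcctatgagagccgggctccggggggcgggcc
TSC2, chr16:2047735-2047984, plus strand: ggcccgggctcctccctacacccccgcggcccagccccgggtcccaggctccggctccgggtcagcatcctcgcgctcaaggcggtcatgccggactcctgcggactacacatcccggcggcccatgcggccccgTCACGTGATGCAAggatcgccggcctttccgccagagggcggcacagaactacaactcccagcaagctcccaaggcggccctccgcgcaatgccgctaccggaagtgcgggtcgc
DDIT4, chr10:72273674-72273923, plus strand: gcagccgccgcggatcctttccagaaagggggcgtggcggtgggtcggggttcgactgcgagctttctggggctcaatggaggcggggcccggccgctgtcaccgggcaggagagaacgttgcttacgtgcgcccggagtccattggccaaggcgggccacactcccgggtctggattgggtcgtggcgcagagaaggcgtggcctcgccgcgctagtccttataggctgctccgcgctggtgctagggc
SESN2, chr1:28259268-28259517, plus strand: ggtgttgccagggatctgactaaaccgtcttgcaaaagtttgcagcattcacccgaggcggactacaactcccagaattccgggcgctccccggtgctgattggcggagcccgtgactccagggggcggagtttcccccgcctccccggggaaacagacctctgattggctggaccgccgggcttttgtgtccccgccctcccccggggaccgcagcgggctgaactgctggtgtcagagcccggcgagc
In FNIP1 the TCACGTG matches lie 175 and 94 bases before the start, and in RRAGC 1 match lies 112 bases before it. In the TSC2 window, matches on both strands overlap at 115 and 114 bases before the start, and TGATGNAA overlaps them at 110. A second RefSeq start of TSC2 had no match, nor did the windows of DDIT4, SESN2, TSC1, FLCN and FNIP2. TCACGTG was thus present for 3 of the 8 genes, and in 3.71% of the 35116 promoter windows in the table. TGATGNAA was present for 1 of the 8 genes and in 3.62% of all windows, CACGTG for 3 and in 7.26%, and GTAAACA for 0 and in 3.42%. A match in these letters is a description of the sequence and says nothing of whether a factor binds there.

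The libraries held 14910516 to 28968510 expected counts, and all 10 genes were among the 15263 that passed the filter on low counts. Levels are given as CPM, counts scaled to one standard library size after correction by the trimmed mean of M-values (TMM). A count of 3, taken as the floor, equals 0.105 to 0.214 CPM, and this limit covers counting error only. Spike-in control sequences took 0.527% to 1.28% of a library, and their identity and amount are not stated in the labels. Their share was highest in library 1 of each group, and was 1.06%, 0.53% and 0.66% in solvent libraries 1, 2 and 3. When libraries were scaled to them instead, the median of all genes moved up by 0.60 (log2) in solvent against starved cells, by 0.81 in DMA against starved and by 0.73 in C646 against starved. The share of called genes that were higher then went from 51.9% to 94.5%, from 51.7% to 97.9% and from 52.5% to 97.6%, and against solvent the shift was 0.22 for DMA (41.9% to 93.4%) and 0.13 for C646 (67.0% to 84.0%). For DMA against C646 the median stood at 0.098 (32.7% to 44.2%). The SE can be larger with spike-in scaling (for the sestrin gene SESN1 in DMA against solvent, 0.34 in place of 0.22). The part of this spread in the calls lost below was not tested. Changes below are relative to the median gene, and in bulk RNA fewer cells expressing a gene and less RNA per cell cannot be told apart. KRT8 (264 to 543 TPM), KRT18 (377 to 756) and VIM (3359 to 5420, with 24.4% of its exon bases overlapping antisense genes) were abundant, OTX2 and MITF were present (4.69 to 16.0 and 6.28 to 23.1), and the pigment epithelium genes RPE65, TYR and RLBP1 reached at most 0.50 TPM. BEST1 and PMEL, also pigment epithelium genes, reached at most 1.61 and 1.12 TPM, and TERT (telomerase) measured 0.51 to 2.05 TPM. The summed level of these 11 genes was 5683 to 6087 TPM in starved cells and 4348 to 5281 TPM in the other groups. KRT8, KRT18, VIM and TERT are not particular to pigment epithelium, so the sum does not measure that identity. Most of this sum is VIM, with a mean of 5114 TPM in starved cells and 3909 to 4065 TPM in the others, and its part in the results was not tested. Of 8 markers of other cell types, SOX10 was at 0, CDH5, EPCAM, CDH1, PECAM1 and PTPRC stayed below 0.50 TPM, ALB reached 1.84 TPM, and CD68 (up to 107 TPM) shares 77.3% of its 31-base sequences with other genes.

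Refeeding with solvent was compared with starvation first, to ask which of the 10 transcripts differ after 4 h with serum, glucose and DMSO. DDIT4 and SESN2 fell most, and FLCN, FNIP1, RRAGC and TSC2 fell by smaller amounts, so 6 of the 10 genes were lower and 0 were higher (edgeR quasi-likelihood test, adjusted p under 0.05). Over all genes tested 11.7% were called lower in this comparison. The median log2 fold change of the 10 genes was -0.78, beside 0.00 for all genes. TSC1, FNIP2, DEPTOR and RRAGD were not called. With TMM scaling the 6 were 3 inhibitors of mTORC1 and 3 genes of the Rag branch. With spike-in scaling the calls were 2, DDIT4 and SESN2, both inhibitors, where 1.24% of all genes were called lower.

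DDIT4, on chromosome 10 (72273920 to 72276036, GRCh38), measured 175, 149 and 80.5 CPM in starved libraries 1, 2 and 3. In solvent it measured 8.61, 14.5 and 12.6 CPM, in DMA 10.6, 13.7 and 14.2 CPM and in C646 16.1, 13.5 and 17.0 CPM. Every starved library was above every refed library, and the 3 refed groups overlapped one another. The solvent mean was 8.84% of the starved mean, a log2 fold change of -3.50 ± 0.28 (SE) with an adjusted p of 1.03e-05. Without starved library 3, the lowest of its group, the change was -3.77, and without starved library 1 it was -3.27. With spike-in scaling DDIT4 still fell, by 2.79. Of its exon bases 41.2% overlap the antisense gene DDIT4-AS1, which measured at most 0.044 CPM and was under 0.01 CPM in 11 of 12 libraries.

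SESN2, on chromosome 1 (28259527 to 28282491), measured 141, 111 and 112 CPM in starved cells and 15.3, 26.0 and 41.5 CPM in solvent. In DMA it measured 59.5, 60.0 and 62.9 CPM and in C646 55.6, 41.7 and 78.1 CPM. The starved libraries were highest, the solvent libraries lowest, and both inhibitor groups lay between, although the lowest C646 library and the highest solvent library differed by less than 1 CPM. In solvent the mean was 22.8% of the starved mean, a log2 fold change of -2.14 ± 0.30 (adjusted p = 4.4e-04, edgeR), and with spike-in scaling it fell by 1.44 (adjusted p = 7.4e-04). The middle level depended on the scaling. With spike-ins SESN2 was not called against starved cells with DMA (-0.15, adjusted p = 0.71) or C646 (-0.31, 0.46). Against solvent it was then called with DMA (1.29, 0.031) but not with C646 (1.13, 0.10).

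**Figure D1:**
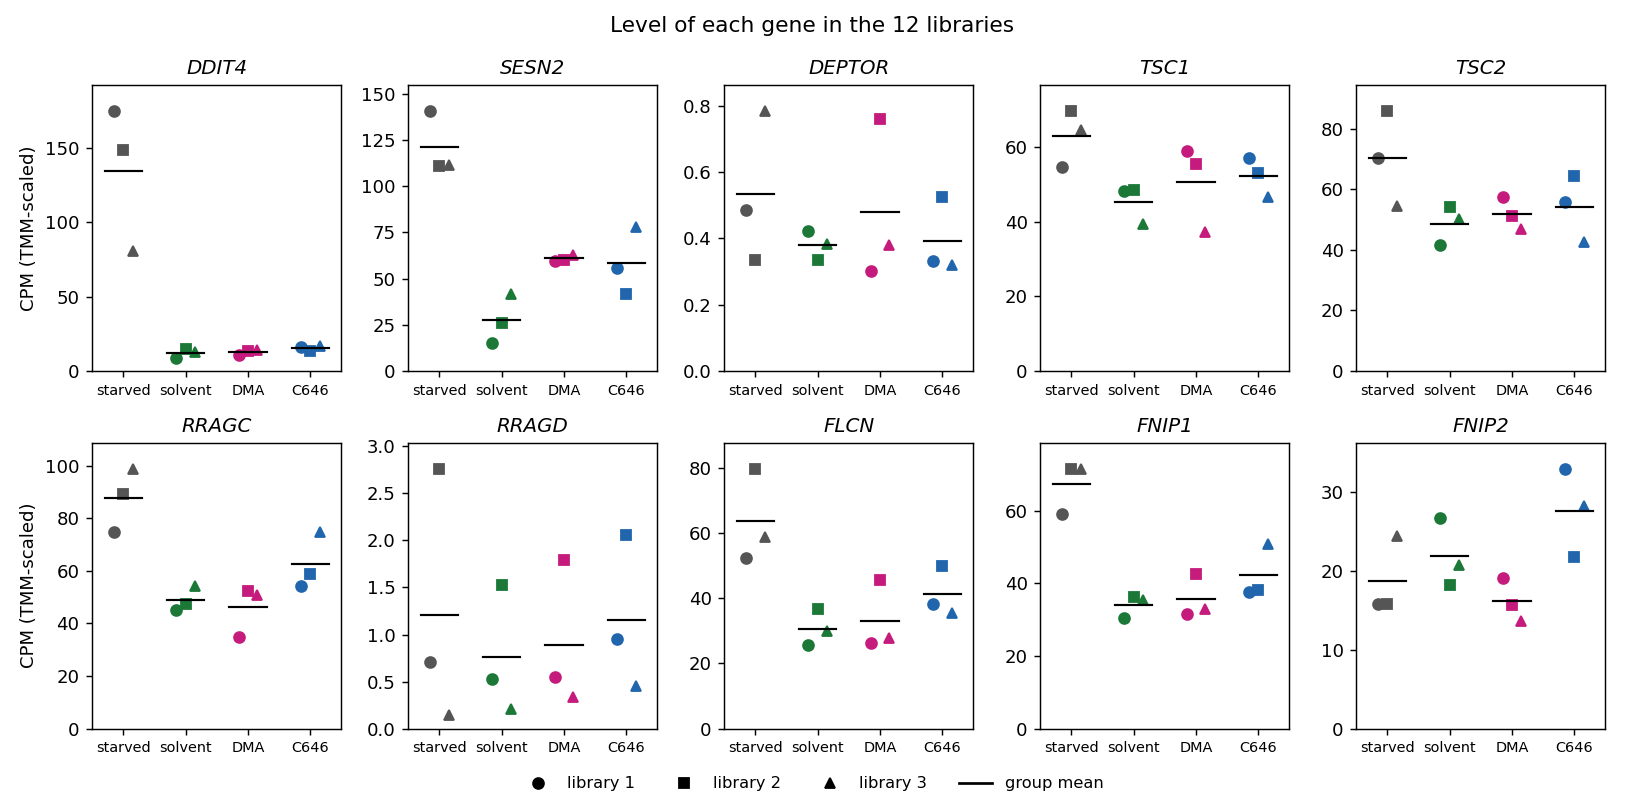
Level of each of the 10 genes in CPM (y axis, from 0, a scale of its own per gene) in each library of the 4 groups (x axis), with circle, square and triangle for libraries 1, 2 and 3 and a line at the group mean. DDIT4 drops from 80.5 to 175 CPM in starved cells to 8.61 to 17.0 CPM in all refed libraries. With TMM scaling SESN2 takes a middle level of 41.7 to 78.1 CPM with either inhibitor. With spike-in scaling it was not called against starved cells for either inhibitor.

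TSC1 (chromosome 9, 132891348 to 132946874) and TSC2 (chromosome 16, 2047465 to 2089487) encode the complex that inhibits RHEB. TSC2 measured 70.5, 86.0 and 54.5 CPM in starved cells and 41.6, 54.3 and 50.1 CPM in solvent, so the groups were separated by less than 1 CPM. Its log2 fold change of -0.53 ± 0.18 had an adjusted p of 0.0494, just past the threshold. That call was lost without starved library 1 (adjusted p = 0.11), starved library 2 (0.22) or solvent library 1, 2 or 3 (0.17, 0.061 and 0.091), and with spike-in scaling the sign turned to 0.11, less than the shift of the median gene. TSC1 measured 54.7, 69.7 and 64.6 CPM in starved cells and 48.3, 48.6 and 39.3 CPM in solvent, which did not overlap either, with a log2 fold change of -0.47 ± 0.17 and an adjusted p of 0.057. DESeq2 called it (adjusted p = 0.036), and with spike-in scaling its value was 0.0965.

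DEPTOR was near the limit of detection, with 6 to 17 expected counts and 0.30 to 0.78 CPM per library, and its groups overlapped throughout. Its log2 fold change in solvent against starved cells was -0.45 ± 0.51, with a 95% interval from -1.55 to 0.65, so a change of either direction was not detectable at this depth.

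RRAGC, RRAGD and the folliculin genes were read next, as the branch that answers amino acids. RRAGC (chromosome 1, 38838198 to 38859823) measured 74.7, 89.4 and 99.0 CPM in starved cells and 45.2, 47.3 and 54.1 CPM in solvent. FLCN (chromosome 17, 17212212 to 17237188) measured 52.3, 79.7 and 58.8 CPM in starved cells and 25.6, 36.6 and 29.8 CPM in solvent. FNIP1 (chromosome 5, 131641714 to 131797063) measured 59.2, 71.5 and 71.6 CPM in starved cells and 30.4, 36.1 and 35.5 CPM in solvent. For all 3 genes every starved library was above every solvent library. The share of all genes without overlap was not counted, for this or any other comparison. The solvent mean was 55.7% of the starved mean for RRAGC, 48.2% for FLCN and 50.4% for FNIP1. In log2 these changes were -0.84 ± 0.17 for RRAGC (adjusted p = 0.0035), -1.05 ± 0.23 for FLCN (0.0057) and -0.99 ± 0.16 for FNIP1 (7.4e-04). With spike-in scaling they kept their sign at -0.26, -0.43 and -0.39 and lost their calls (adjusted p = 0.57, 0.35 and 0.40), while the median of all genes stood at 0.60. RRAGC shares 24.7% of its 31-base sequences with other genes, and the gene that overlaps 22.9% of its exon bases on the same strand was at 0 in 12 of 12 libraries.

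FNIP2, the FNIP1 paralog (chromosome 4, 158769138 to 158908049), was not called. It measured 15.8, 15.8 and 24.4 CPM in starved cells and 26.6, 18.3 and 20.7 CPM in solvent, which overlap, with a log2 fold change of 0.24 ± 0.22 (adjusted p = 0.48). The ratio of FNIP2 to FNIP1, each in TPM (a level per transcript length), was 0.289, 0.232 and 0.375 in starved libraries 1 to 3 and 0.835, 0.520 and 0.527 in solvent. Every solvent library was above every starved library, a mean log2 difference of 1.06, and the two-sided exact permutation test gave p = 0.10, the smallest that 3 against 3 libraries allow. In DMA the ratio was 0.672, 0.317 and 0.431, and in C646 0.850, 0.504 and 0.599. Both overlapped the solvent ratios, with log2 differences of -0.44 (exact permutation p = 0.40) and 0.0557 (p = 0.90). A ratio within a library does not depend on how libraries are scaled. Of the 6 ratio tests made, none could pass a correction for multiple tests at this number of libraries.

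RRAGD (chromosome 6, 89364636 to 89412270), the RRAGC paralog, was rare, at 0.14 to 2.76 CPM and 2 to 66 expected counts. Its values in libraries 1, 2 and 3 were 0.70, 2.76 and 0.14 CPM in starved cells, 0.53, 1.53 and 0.21 CPM in solvent, 0.55, 1.79 and 0.33 CPM in DMA, and 0.95, 2.06 and 0.46 CPM in C646. The order of the library numbers was the same in all 4 groups, with number 2 highest and number 3 lowest, and the differences between numbers exceeded those between groups. Among all genes tested, 5.11% had the same number highest and the same number lowest in the 4 groups. The log2 fold change of RRAGD in solvent against starved cells was -0.71 ± 0.93 (adjusted p = 0.62). FLCN was also highest in library 2 of each group, a pattern that 4.59% of all genes shared and that was noticed after the values were seen. The labels do not say what a library number stands for. The RRAGD to RRAGC ratio in TPM ran from 0.0010 to 0.0549, and its log2 differences were 0.0278 in solvent against starved (exact permutation p = 1.00), 0.78 in DMA against solvent (p = 0.70) and 1.37 in C646 against solvent (p = 0.40).

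**Figure D2:**
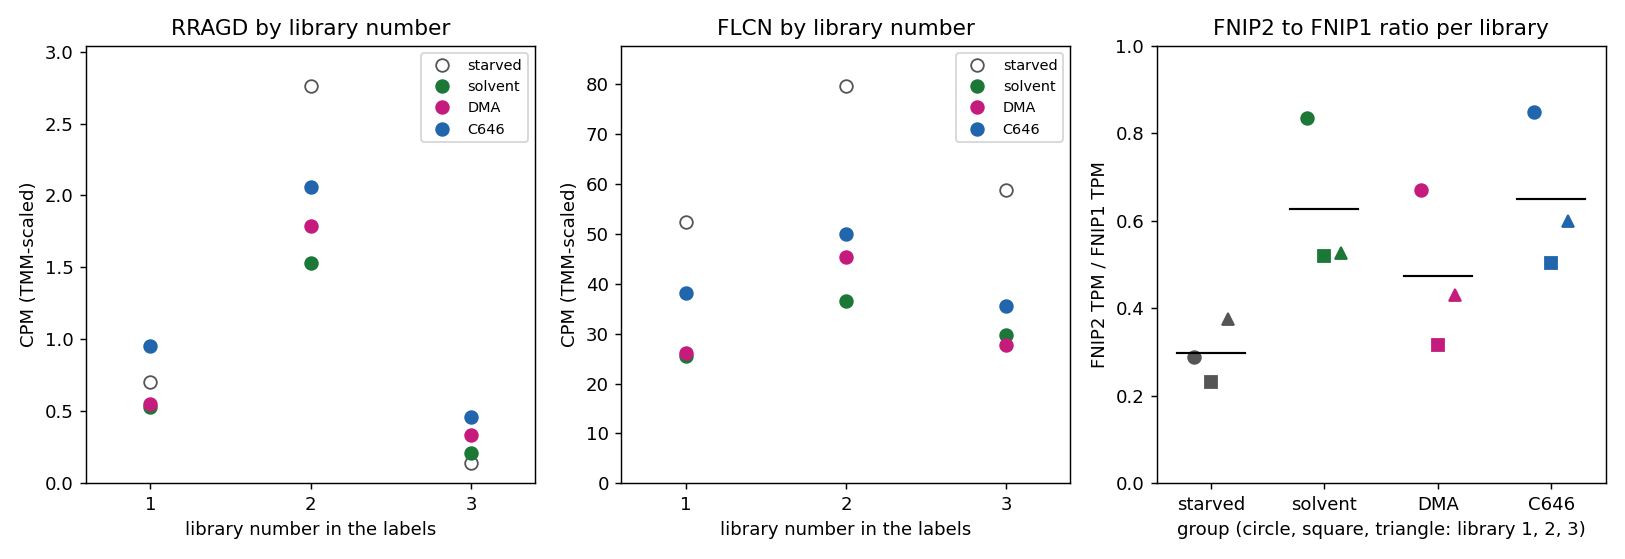
Left and middle, RRAGD and FLCN in CPM (y axis) by the library number in the labels (x axis), with 1 point per group. Right, the FNIP2 to FNIP1 ratio of TPM per library (y axis) by group, with a line at the mean. Library 2 is highest in every group for both genes, and the 3 starved ratios (0.232 to 0.375) lie below the 3 solvent ratios (0.520 to 0.835).

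The inhibitors were then compared with solvent at the same 4 h. With DMA, 0 of the 10 genes were called by edgeR, 1 (SESN2) had an unadjusted p under 0.05, and DESeq2 called 1. Over all genes tested these shares were 1.75%, 19.4% and 7.18%. With C646, 0 were called by edgeR, 1 (SESN2 again) had an unadjusted p under 0.05 and DESeq2 called 1, beside 1.21%, 16.8% and 5.84% of all genes. In both comparisons 1 of 10 with an unadjusted p under 0.05 is below the share of all genes. SESN2 was higher with either agent: by 1.14 ± 0.30 in log2 with DMA (adjusted p = 0.071, 3 of 3 libraries above every solvent library) and by 1.09 ± 0.30 with C646 (0.090, 3 of 3). DESeq2 gave adjusted p-values of 0.0042 and 0.0083 for the 2 differences. For these comparisons the library numbers were taken to pair the samples, because same-numbered libraries deviated together in these same data. The labels do not state such a pairing, so calls with the block rest on that inference. Once the number entered the fit as a block SESN2 was called for DMA (1.199, adjusted p = 0.031) and for C646 (1.102, 0.047), where 10.2% and 7.86% of all genes were called. Solvent library 3, at 41.5 CPM, was the solvent library nearest to the inhibitor groups. Without it the differences were 1.56 (adjusted p = 0.026) and 1.502 (0.034). Solvent library 1, at 15.3 CPM, was the lowest, and with the block and without that library the C646 difference was 0.77 (adjusted p = 0.075) and the DMA difference 0.86 (0.044).

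For the other 9 genes the unblocked test against solvent gave no call, and the intervals show what the libraries could and could not exclude. DDIT4 differed from solvent by 0.11 in log2 with DMA (95% interval -0.46 to 0.68) and by 0.39 with C646 (-0.18 to 0.95). FLCN differed by 0.11 with DMA (-0.38 to 0.61) and by 0.43 with C646 (-0.07 to 0.92). The C646 difference of FLCN had an adjusted p of 0.38 and was called with the block (0.43, adjusted p = 0.035), but not once solvent library 1 was also left out (0.41, 0.13). RRAGC differed by -0.08 (-0.45 to 0.29) and 0.36 (-0.01 to 0.73), FNIP1 by 0.07 (-0.27 to 0.41) and 0.31 (-0.03 to 0.65), TSC1 by 0.16 (-0.21 to 0.52) and 0.20 (-0.16 to 0.57), and TSC2 by 0.09 (-0.30 to 0.49) and 0.16 (-0.24 to 0.55). For RRAGC and FNIP1 every C646 library was above every solvent library although neither was called. For RRAGC this was nearly a tie, with the lowest C646 library at 54.29 CPM and the highest solvent library at 54.14 CPM. For FNIP1 these were 37.5 and 36.1 CPM. The share of all genes without overlap was not counted. FNIP2 differed by -0.44 with DMA (-0.92 to 0.04) and by 0.34 with C646 (-0.14 to 0.81), that is, in opposite directions. The median of the 10 log2 differences was 0.11 with DMA and 0.35 with C646, beside 0.01 for all genes in both.

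**Figure D3:**
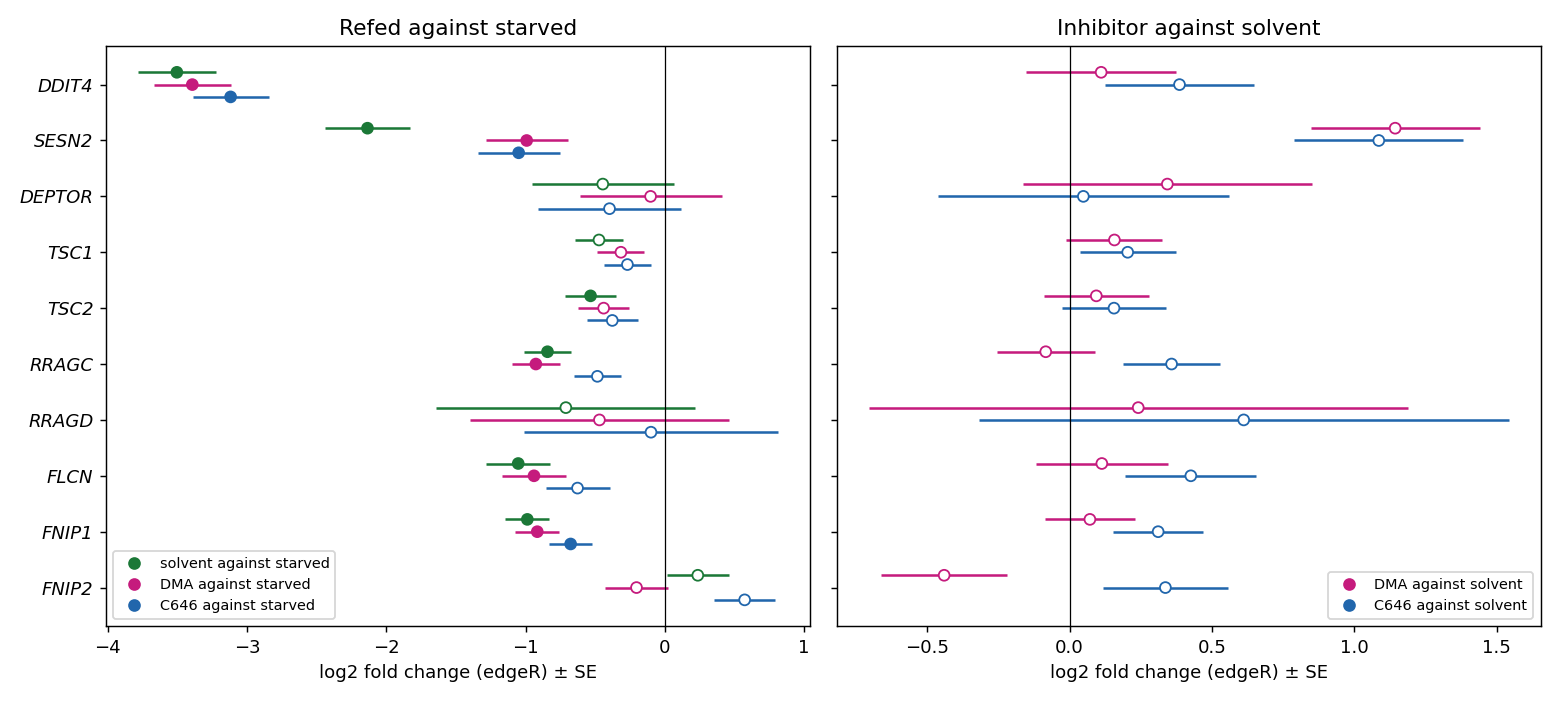
Log2 fold change from edgeR (x axis, the 2 panels have different ranges) with its SE for each of the 10 genes (y axis). Left, each refed group against starved cells, and right, each inhibitor against solvent, with filled points for adjusted p under 0.05 without a replicate block and open points otherwise. On the left DDIT4 lies between -3.50 and -3.12 in all groups and SESN2 at -2.14, -0.99 and -1.05, and on the right no point is filled, with SESN2 at 1.14 and 1.09. Under spike-in scaling TSC1 and TSC2 on the left change sign in all 3 comparisons, and RRAGC, FLCN and FNIP1 do so for C646, DEPTOR does so in all 3, RRAGD for DMA and C646 and FNIP2 for DMA. On the right RRAGC does so for DMA.

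DMA and C646 were also compared with each other. By edgeR 0 of the 10 genes were called and 2 (FNIP2 and RRAGC) had an unadjusted p under 0.05 and DESeq2 called 1. Over all genes the shares were 2.89%, 17.4% and 6.91%, so the unadjusted count of 2 is near the share of all genes. FNIP2 measured 19.1, 15.6 and 13.6 CPM in DMA and 32.9, 21.7 and 28.2 CPM in C646, which do not overlap. The log2 difference was -0.78 ± 0.22 (adjusted p = 0.081), DESeq2 gave an adjusted p of 0.020, and with the block the difference was -0.76 (0.021). RRAGC measured 35.0, 52.5 and 50.8 CPM in DMA and 54.3, 59.0 and 74.7 CPM in C646, a log2 difference of -0.44 ± 0.17 (adjusted p = 0.20) and of -0.45 (0.020) with the block, where 9.81% of all genes were called. These 2 genes were the ones lower with DMA than with C646 under the block. SESN2 differed between the 2 agents by 0.06 (95% interval -0.57 to 0.69) and DDIT4 by -0.28 (-0.84 to 0.29).

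Each inhibitor group was last set against the starved cells, which all 3 refed groups share as their reference. With DMA 5 of the 10 genes were lower and 0 higher, with 13.0% of all genes called lower. They were DDIT4 (-3.39 ± 0.28, adjusted p = 9.1e-06), FNIP1 (-0.92 ± 0.16, 0.0011), RRAGC (-0.93 ± 0.17, 0.0018), FLCN (-0.94 ± 0.23, 0.0096) and SESN2 (-0.99 ± 0.29, 0.025). The SESN2 call was lost without starved library 1 (adjusted p = 0.080) and without DMA library 1, 2 or 3 (0.064, 0.067 and 0.056) and with no filter (0.098), and the FLCN call when transcript lengths entered the fit (0.11). TSC2 measured 57.6, 51.4 and 46.8 CPM in DMA, a log2 difference of -0.44 (adjusted p = 0.093) that was called with the block (-0.42, 0.029, with 38.7% of all genes called in either direction). It was also called without starved library 3 (0.031).

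With C646 3 of the 10 genes were lower than in starved cells and 0 higher, with 11.7% of all genes called lower. They were DDIT4 (-3.12 ± 0.27, adjusted p = 1.4e-05), FNIP1 (-0.68 ± 0.16, 0.0075) and SESN2 (-1.05 ± 0.29, 0.021). The SESN2 call was lost without starved library 1 (0.069) and without C646 library 1 or 2 (0.070 and 0.081) and with no filter (0.090), and FNIP1 measured 37.5, 38.1 and 50.9 CPM with C646. With the block 7 genes were called, where 36.2% of all genes were. Those added were FLCN (-0.62, adjusted p = 8.3e-04), RRAGC (-0.49, 0.0033) and TSC2 (-0.37, 0.049), all lower, and FNIP2 (0.56, 0.031), which was higher. Without the block their adjusted p-values were 0.063, 0.054, 0.15 and 0.075. RRAGC was called without starved library 1 or C646 library 3 (0.046 and 0.026), and FNIP2 without starved library 3 (0.026). Under spike-in scaling DDIT4 was the 1 of the 10 called lower than starved with either agent (-2.51 with DMA and -2.36 with C646), FNIP1 with C646 turned to 0.0347, and FNIP2 with C646 was called higher (1.22, adjusted p = 0.0054).

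As a share of the starved mean, DDIT4 stood at 8.84% in solvent, 9.52% in DMA and 11.5% in C646, so its level was low in every refed group. SESN2 stood at 22.8%, 50.3% and 48.3%. RRAGC stood at 55.7%, 52.6% and 71.5%, FLCN at 48.2%, 52.1% and 64.8%, and FNIP1 at 50.4%, 52.96% and 62.6%. The C646 mean was the highest of the refed means for these 3 genes, as it was for 8 of the 10 genes. The share of all genes with this order was not counted. In the filtered edgeR fit of all 12 libraries without a block, 0 of the 10 were called for C646 against solvent or DMA against C646. TSC1 stood at 72.0%, 80.4% and 83.0%, TSC2 at 69.2%, 73.9% and 77.1%, and FNIP2 at 117%, 86.5% and 148%. These shares rest on 1 set of starved libraries and are given as a description. The ratio of SESN2 to DDIT4 in TPM was 0.464 ± 0.17 (SD, n = 3) in starved cells, 1.06 ± 0.39 in solvent, 2.31 ± 0.39 in DMA and 1.75 ± 0.39 in C646.

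Compared per length in TPM, the order of the genes differed between starved and refed cells. In starved cells DDIT4 was the most abundant at 118 ± 48.5 TPM, followed by SESN2 at 49.3 ± 8.78, RRAGC at 43.1 ± 4.69, TSC2 at 41.4 ± 10.1 and FLCN at 33.5 ± 12.9. Among these 5, DDIT4 did not overlap SESN2, and each of the others overlapped the next. FNIP1 (14.97 ± 1.92) and TSC1 (13.5 ± 3.99) overlapped each other, and FNIP2 (4.40 ± 0.70), RRAGD (0.85 ± 0.95) and DEPTOR (0.34 ± 0.14) came last. In solvent TSC2 led at 30.0 ± 0.21 TPM, above RRAGC at 24.8 ± 1.74 and FLCN at 16.0 ± 5.00 with no overlap between these neighbours. The TSC2 level sums coding and other transcripts, whereas RRAGC was mainly 1 coding transcript (23.6 TPM in solvent). In solvent the coding TSC2-204 measured 4.41 TPM, and TSC2-213, annotated as nonsense-mediated decay, 7.44 TPM. DDIT4 then stood in rank 5 at 10.7 ± 2.80 TPM, overlapping SESN2 (11.5 ± 5.35) and TSC1 (9.30 ± 1.34). With DMA SESN2 stood in rank 2 at 25.2 ± 0.23 TPM, and with C646 in rank 3 at 24.7 ± 7.71 TPM, in both cases overlapping its neighbours.

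The estimated counts were also split by transcript. SESN2 has 1 transcript in the tables, and DDIT4 and RRAGC each had 1 main coding transcript with group means of 96.3% to 98.2% and 95.2% to 99.4% of the gene's TPM. For FNIP1 the main coding transcript took 73.6% of the TPM in starved cells and 80.8% to 84.2% in the refed groups, and for FNIP2 72.3% and 83.8% to 86.1%. The starved and solvent libraries overlapped for both genes. For FNIP2 the starved libraries (68.8% to 75.2%) lay below those with DMA (75.6% to 93.2%) and C646 (81.4% to 89.5%). FLCN was split among coding transcripts, and 1 of them, FLCN-203, took 30.9%, 30.0%, 30.3% and 35.6% of the gene's TPM in library 2 of the starved, solvent, DMA and C646 cells, but 3.76%, 4.04%, 10.9% and 7.89% in library 1. In library 3 its share was 15.8%, 20.7%, 30.5% and 13.96%. TSC1 counts moved between 2 coding transcripts from library to library: TSC1-201 took 7.20% to 51.6% of the TPM in the solvent libraries and TSC1-208 0.0066% to 52.7%. How the quantification divided reads between transcripts that share exons is not given in the sources used here, so that gene sums were used for every test. TSC1-207, annotated as a retained intron, took 16.0% to 20.7% of the TSC1 TPM by group mean. TSC2 was spread over many of its 26 transcripts, and TSC2-204, the coding transcript with the highest share, took 12.04% to 23.2% by group mean.

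Other genes of the pathway were read from 7 lists of 68 genes, of which 66 were tested. In solvent against starved cells 7 were higher and 16 lower (10.6% and 24.2% of the 66), beside 12.6% of all genes higher and 11.7% lower. With spike-in scaling 9 of the 66 were higher and 3 lower, where 21.1% of all genes were higher and 1.24% lower. Among the 8 other Rag and Ragulator genes 2 were higher, RRAGA (0.63 ± 0.11), the GTPase partner of RagC, and LAMTOR5 (0.39 ± 0.12), and 1 was lower, the lysosomal arginine transporter SLC38A9 (-0.68 ± 0.16). RRAGA measured 70.9 to 90.9 CPM in starved and 122 to 123 CPM in solvent libraries, so with TMM scaling the partners RRAGA and RRAGC were called in opposite directions. With spike-in scaling RRAGA was called at 1.21, and RRAGC, at -0.26, was not (adjusted p = 0.57). Of the 9 mTOR complex genes 2 were lower, RICTOR (-0.80 ± 0.16) of mTORC2 and the shared subunit MLST8 (-0.66 ± 0.21), and 2 higher, the assembly factor TTI1 (0.50 ± 0.15) and MAPKAP1 (0.30 ± 0.10) of mTORC2. GATOR1 and KICSTOR, complexes that inhibit the Rag GTPases, had 2 of 7 lower, among them NPRL3 (-0.40 ± 0.14), and 0 higher. GATOR2 and the amino acid sensors had 2 of 9 higher, SESN1 (0.87 ± 0.22) and SEH1L (0.41 ± 0.12), and 0 lower. The calls of RRAGA, SLC38A9 and RICTOR held in each of 6 fits without 1 library. Of the same 6 fits, LAMTOR5 and MLST8 lost the call in 4, TTI1 and SEH1L in 3, MAPKAP1 and NPRL3 in 5 and SESN1 in 2 (without starved library 2 or solvent library 3). With spike-in scaling MLST8 and NPRL3 changed sign (0.0125 and 0.2004). SLC38A9 (-0.13, adjusted p = 0.82) and RICTOR (-0.23, 0.63) then kept their sign but lost their calls. LAMTOR5, TTI1, MAPKAP1, SEH1L and SESN1 stayed called.

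SESN1 and SESN2 are paralogous sestrins, and in solvent against starved cells they moved in opposite directions. SESN1 measured 18.2 to 23.8 CPM in starved, 29.9 to 51.3 in solvent, 63.4 to 71.6 in DMA and 48.3 to 83.6 in C646 libraries. Against solvent its log2 difference was 0.83 ± 0.22 with DMA (adjusted p = 0.071) and 0.81 ± 0.22 with C646 (0.086), neither called by edgeR without the block. With the block both were called (0.86, adjusted p = 0.0086, and 0.81, 0.013), and without solvent library 1 as well the values were 0.69 (0.039) and 0.63 (0.062). SESN3 did not pass the filter on low counts.

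Of the 12 mTORC1 substrates and effectors 5 were lower in solvent than in starved cells, among them the autophagy kinase ULK1 (-1.22 ± 0.24) and the translation inhibitor PDCD4 (-1.09 ± 0.18, uncertain because 29.5% of its exon bases overlap genes on both strands), and 1 was higher, EIF4EBP2 (0.64 ± 0.13). The calls of these 3 genes held in each of the 6 fits without 1 library. With spike-in scaling ULK1 (-0.55, adjusted p = 0.24) and PDCD4 (-0.48, 0.28) lost their calls, and EIF4EBP2 (1.19, 0.0055) kept its call. Of the 12 growth factor and energy genes 0 were called by edgeR, 3 had an unadjusted p under 0.05 (36.3% of all genes did) and DESeq2 called 1 (28.5% of all genes). The list of 9 factors that act upstream, which holds ATF4, DDIT3 and other stress regulators, had 6 lower and 0 higher, with a median of -0.92. DDIT3 fell from 227 to 311 CPM to 4.39 to 7.13 CPM (-5.50 ± 0.32, uncertain because 39.6% of its exon bases overlap other genes), and ATF4 from 868 to 994 CPM to 204 to 307 CPM (-1.88 ± 0.21). With DMA against starved cells 9 of the 66 genes were higher and 16 lower, beside 13.9% and 13.0% of all genes, and with C646 6 were higher and 12 lower, beside 12.9% and 11.7%. The split depended on the scaling: with spike-ins 25 were higher and 2 lower for DMA, where 42.2% of all genes were higher and 0.884% lower. For C646 it was then 20 and 2, where 33.4% were higher and 0.812% lower. The medians over the 66 genes were -0.17 in each of the 3 comparisons, beside 0.00 to 0.01 for all genes. Without starved library 1 or 2 the count in solvent against starved cells was 14 in place of 23, and without starved library 2 it was 16 in place of 25 for DMA and 11 in place of 18 for C646.

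**Figure D4:**
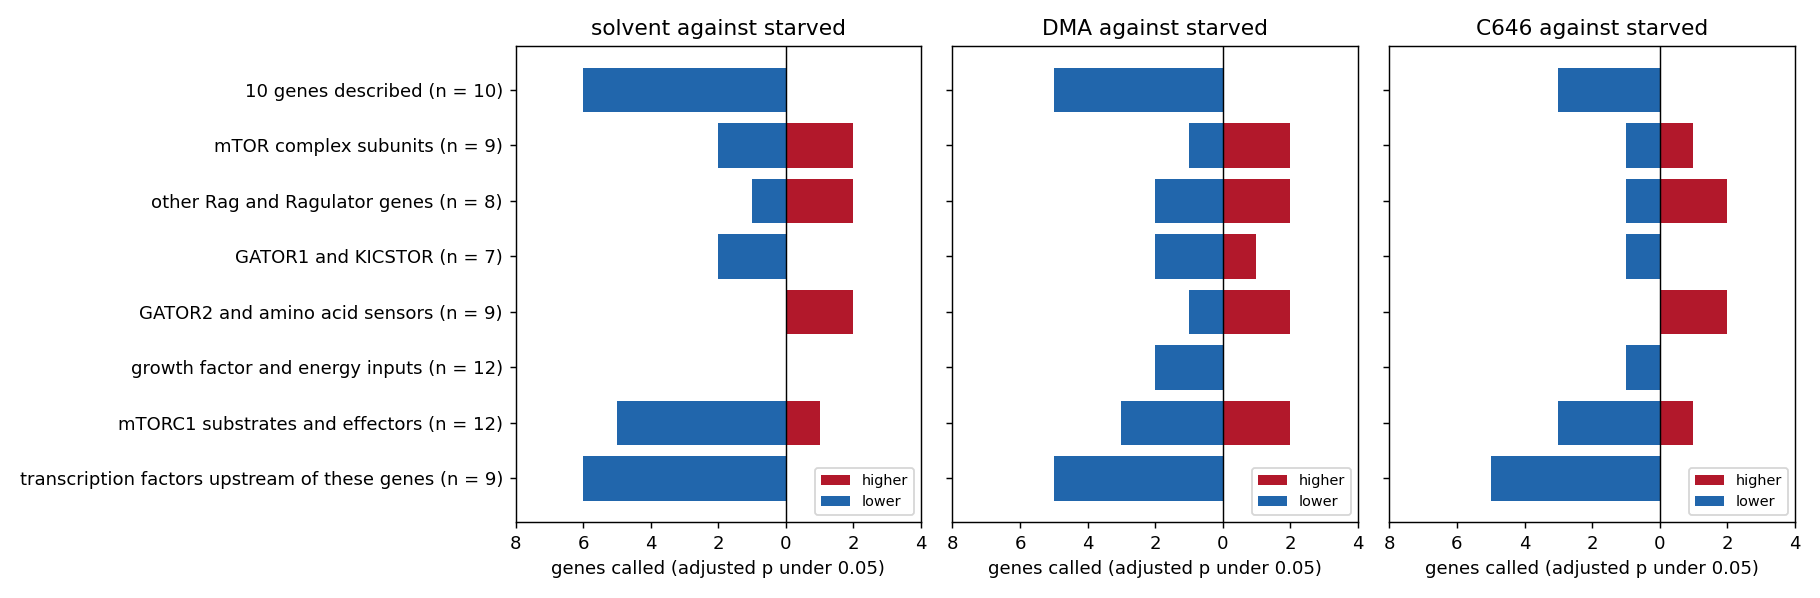
Number of genes called higher (right of 0) and lower (left of 0) at an adjusted p under 0.05 (x axis), for the 10 genes and the 7 pathway lists (y axis, with the number tested), in each refed group against starved cells. The 10 genes have 6, 5 and 3 lower and 0 higher, the upstream factors 6, 5 and 5 lower, and the lists of Rag, Ragulator and mTOR complex genes have calls in both directions.

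Against solvent, DMA had 1 of the 66 pathway genes called (1.52%, beside 1.75% of all genes), so the list as a whole did not stand out. The gene was KICS2 (annotated as C12orf66), a subunit of KICSTOR. It measured 25.6 to 29.8 CPM with DMA, 10.1 to 14.3 CPM in solvent, 6.85 to 10.6 CPM with C646 and 9.34 to 12.2 CPM in starved cells, so all DMA libraries stood above all others. The log2 difference was 1.16 ± 0.20 from solvent (adjusted p = 0.018), 1.59 ± 0.20 from C646 (0.0022) and 1.403 ± 0.20 from starved cells (3.3e-04). Without solvent library 1, solvent library 2 or DMA library 2 the call against solvent was lost (adjusted p up to 0.089), and with spike-in scaling the difference was 1.33 (0.051). With C646 against solvent 0 of the 66 genes were called by edgeR, 9 (13.6%) had an unadjusted p under 0.05, beside 16.8% of all genes, and DESeq2 called 6, beside 5.84% of all genes. The same counts for DMA were 1, 17 (25.8%, beside 19.4%) and 7 (beside 7.18%). Between the inhibitors NFE2L2, the oxidant response factor, was lower with DMA (-0.46 ± 0.11, adjusted p = 0.035), a call lost in 6 of 6 fits without 1 library, and it is uncertain because 20.9% of its exon bases overlap other genes.

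For each of the 10 genes up to 3 protein-coding genes with the most similar profile were taken by Pearson's r of log2 CPM over the 12 libraries, among 10600 genes. These values describe the libraries, whose groups they share, and carry no test. DDIT4 was closest to CALCOCO2 (0.98), KIZ (0.98) and HERPUD1 (0.98), the last a gene of the endoplasmic reticulum stress response. SESN2 was closest to GPR108 (0.95), GPRC5C (0.93) and ZFPL1 (0.92). FLCN was closest to IRS2 (0.97), which encodes an insulin receptor substrate, and to TPP1 (0.95), which encodes a lysosomal enzyme. FNIP1 was closest to PJA2 (0.97), EVI2A (0.97) and CLIP1 (0.97), RRAGC to CCNG1 (0.96), STX3 (0.96) and WASHC2A (0.96), and FNIP2 to NRIP3 (0.97), FAM177A1 (0.92) and MARCH7 (0.92). TSC2 was closest to MAPK12 (0.97), UCKL1 (0.96) and CEP131 (0.96), and TSC1 to DENND4C (0.95), BOD1L1 (0.94) and ARIH1 (0.93). RRAGD was closest to CELF2 (0.93), GSTM2 (0.93) and SRPX2 (0.91). DEPTOR, with the fewest counts, had the lowest values, with PTBP2 (0.82) and ARID2 (0.76). ZFPL1, EVI2A, WASHC2A, MARCH7 and MAPK12 are uncertain, since over 20% of their sequence is shared with or overlaps other genes. Among the 10 genes themselves RRAGC and FNIP1 had the highest value (0.94), followed by DDIT4 and FNIP1 (0.90) and FLCN and FNIP1 (0.87), while FNIP2 had values of -0.39 to 0.10 with the other 9.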

How the data were processed

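Per the labels, poly-A RNA (RNeasy, TruSeq Stranded mRNA) came from 12 RPE-1 libraries. Trimmomatic 0.36, STAR 2.7.0e and GRCh38.p10 are named in the submitters' processing notes. How transcripts were quantified (program, annotation, strandedness) is not given in the sources used here, and the deposited tables hold, per the file headers, expected counts, TPM and an effective length (another kind of value) for each of 182164 transcripts. Of these, 92 were spike-in sequences and 264 matched no GENCODE 29 transcript (0.0923% to 0.146% of counts) and were left out. The remaining deposited expected counts were summed over 43481 genes and rounded. The design had assumed read counts. TPM served for levels per length, ratios and transcript shares, and effective lengths for 1 alternative.

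Genes passing filterByExpr (minimum count 10, minimum total 15) were scaled by TMM and tested in 1 fit of all 12 libraries with edgeR 4.0.16 (robust quasi-likelihood F-tests, checked on simulated data; R 4.3.3), with Benjamini-Hochberg adjustment over 15263 genes and a threshold of 0.05. There were 6 comparisons. FNIP2 to FNIP1 and RRAGD to RRAGC ratios were tested by two-sided exact permutation. The 10 genes and the pathway lists were chosen with earlier results of these data known. Named beside the 10 are up to 2 genes per pathway list, direction and comparison with the smallest adjusted p, and the 3 most similar genes (mean log2 CPM of at least 2, prior count 2). Some genes that this rule names are not reported here. SESN3 and further values of SESN1 were added after values were seen. A gene is uncertain where over 20% of its 31-base sequences or exon bases are shared with or overlap other genes (17 of 126 checked).

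Alternatives were DESeq2 1.42.0, DESeq2 size factors, spike-in scaling, omitting the filter, tightening it (at least 1 CPM throughout a group), fitting the compared groups alone, the replicate block, a transcript length offset and leaving out each library; the block without solvent library 1 was added after seeing the data. Numbers were taken to pair libraries where same-numbered libraries deviate together with a correlation above 0.1 in every pair. Own-number correlations were 0.13 to 0.48 in 5 comparisons, which meet this, and 0.0957, 0.33 and 0.18 for solvent with starved cells, which do not.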

Additional observations from a re-analysis of the deposited data

How the results depend on the processing

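Of the 882 values of single genes under an alternative, 762 kept direction and side of the threshold, 38 became called, 25 lost the call, 55 uncalled values changed sign and 2 called ones reversed, both with spike-in scaling: TSC2 in solvent against starved cells (0.1069) and FNIP1 in C646 against starved cells (0.0347). Calls of DDIT4 against starved cells held under every alternative run. RRAGD and DEPTOR did not pass the stricter filter. With spike-in scaling 2 of the 10 genes were called in solvent against starved cells (6 with TMM), 1 in DMA against starved (5) and 1 in DMA against solvent (0). With DESeq2 it was 1 for each inhibitor against solvent, 1 for DMA against C646 (also without a filter) and 5 for C646 against starved (3). Leaving out a library gave 0 to 1 against solvent for either inhibitor (1 without solvent library 3).

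The replicate block gave 1 gene for DMA against solvent, 2 for C646 against solvent, 2 for DMA against C646 and 7 for C646 against starved cells, and without solvent library 1 as well 1, 0, 2 and 7. For solvent against starved cells, where the numbers do not meet the rule for pairing, it gave 7, adding TSC1 (adjusted p = 0.014), where 17.7% of all genes were called lower, and left the log2 difference of the FNIP2 to FNIP1 ratio at 1.06. Each of these libraries correlated best with its own number. For the 10 genes the block changed no other call than those given here and in the report. Of the 66 pathway genes it called 32 in solvent against starved cells, 34 in DMA against starved and 26 in C646 against starved. Over all genes it called 35.7%, 38.7% and 36.2% in the same order.

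Of the 66 pathway genes, solvent against starved cells had 23 called, 12 with spike-in scaling and 14 to 23 without 1 library. For DMA against solvent (1) the count was 7 with DESeq2, 0 with spike-in scaling, 2 without a filter, 7 with the block, 3 with the block and without solvent library 1, and 0 to 2 without 1 library. For C646 against solvent (0) it was 6, 0, 1, 6 and 0 in the same order, 1 with the stricter filter and 0 to 1 without 1 library. For DMA against C646 (2) it was 4 with DESeq2, 1 with spike-in scaling, 1 with only the compared groups, 4 with the block, 6 with the block and without solvent library 1, and 1 without any 1 library. For DMA against starved cells (25) it was 16 to 23 without 1 library, and for C646 against starved cells (18) 11 to 16, and 28 with the block and without solvent library 1. With spike-in scaling these counts were 27 and 22. Over all genes DESeq2 called 7.18% in DMA against solvent, 5.84% in C646 against solvent and 6.91% in DMA against C646. The block called 10.2%, 7.86% and 9.81% in the same order. Without 1 library the RRAGD to RRAGC difference ran from -1.55 to 1.14 in solvent against starved cells and from -0.0797 to 1.72 in DMA against solvent, and from 0.56 to 2.31 in C646 against solvent. The FNIP2 to FNIP1 difference ran from -0.1537 to 0.28 in C646 against solvent and from -0.73 (without DMA library 1, exact permutation p = 0.10) to -0.18 in DMA against solvent. Depth limits RRAGD and DEPTOR, with as few as 2 and 6 expected counts in a library.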
